A study of Mus musculus with 11 samples.

Results

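The genes described here copy chromosomal DNA or supply its building blocks. The set was a list of 30 mouse genes: the 6 subunits of the MCM2-7 helicase, 4 genes that switch that helicase on, 4 that mark and license origins, 5 of polymerases and primase, 4 of the sliding clamp and its loader, 3 of strand maturation and single-strand binding, and 4 of deoxynucleotide supply. Each gene was read from the probe sets that the platform annotation assigns to that gene alone, and where there were several the probe set with the highest mean over the arrays stood for the gene. A probe set of this kind was found for 29 of the 30 genes, Gins2 being without one, and all 29 lay in the upper 60% of probe sets by mean signal that were tested. The whole array named 12393 genes in this way, of which 7740 were tested. Genes were listed by function, with earlier results of these data known.

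Replication is prepared in G1, when the origin recognition complex, Cdc6 and Cdt1 load the MCM2-7 ring onto DNA. The ring becomes an active helicase in S phase once Cdc45 and the GINS complex join it. Primase and polymerase alpha then lay down primers, the clamp PCNA tethers the replicative polymerases, and Fen1 and Lig1 join the lagging strand fragments, while ribonucleotide reductase, thymidine kinase and thymidylate synthase feed the fork. Transcripts of most of these genes are low in resting lymphocytes and high in cycling ones, where E2F transcription factors drive many of them.

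The samples were sporadic B cell lymphomas of E-mu-BRD2 mice on the FVB background, in which the immunoglobulin heavy chain enhancer drives the BET family bromodomain protein BRD2 in B cells. RNA was hybridised from 6 marginal and 5 transitional lymphomas, 1 array for each, and every sample in both classes carried the transgene and was recorded as oligoclonal for immunoglobulin. Severe splenomegaly was recorded for transitional 1 and 2, a moderately severe grade for transitional 4 and 5 and a moderate one for marginal 5 and 6. The spleens of transitional 3 and of marginal 2, 3 and 4 were graded mild, and that of marginal 1 was graded marginal. Failure to nest was the sign noted in marginal 2 and 3 and in all 5 transitional animals, and a neck, leg or haunch tumor or paralysis was noted in marginal 1, 4, 5 and 6. The age of the animals and the tissue that gave the RNA are not given in the sources used here. Other groups that the design lists, among them resting and activated B cells, are not analysed here.

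Promoter sequence is shown first, because several members that moved together below carry the letters that E2F factors bind. Of the 30 genes, 25 had a promoter entry in RefSeq (mouse build GRCm38.p6), with 29 windows that run from 250 bases before to 50 bases after a start. Mcm4, Gins1, Gins2, Pole and Prim2 had none in that table. The E2F letters searched were TTTCCCGC, TTTCGCGC, TTTGCCGC and TTTGGCGC on both strands. They stood in 11 of the 29 windows, those of Cdc6, Cdt1, Lig1, Mcm3, Mcm5, Mcm6, Mcm7, Orc1, Pola1, Pold1 and Rfc3, and in 2.26% of the 32851 windows in the table. The letters CCAAT, searched on both strands, stood in 17 of the 29 windows, of 16 genes, and in 37.4% of all windows. A match is a description of the letters and does not show that a factor binds there.

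The 170 bases before the start are printed for 6 genes, with E2F and CCAAT letters of either strand in capitals and each sequence in the direction of the gene. Mcm6 is shown for its 3 E2F matches, a pair of which overlap, beside 2 CCAAT matches, Cdc6 as the gene with the widest range of signals, Orc1 and Pola1 as members with both kinds of letters, Rrm2 as a large responder with CCAAT letters alone, and Pold1 as a member that did not move with the rest.
Mcm6, chr1:128359706-128359875, minus strand: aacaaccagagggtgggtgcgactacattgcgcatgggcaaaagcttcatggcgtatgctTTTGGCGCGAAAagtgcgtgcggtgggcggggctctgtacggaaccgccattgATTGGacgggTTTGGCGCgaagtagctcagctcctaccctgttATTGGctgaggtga
Cdc6, chr11:98907981-98908150, plus strand: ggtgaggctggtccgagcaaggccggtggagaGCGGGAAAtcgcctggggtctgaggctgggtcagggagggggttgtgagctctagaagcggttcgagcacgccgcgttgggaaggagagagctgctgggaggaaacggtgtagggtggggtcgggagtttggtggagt
Orc1, chr4:108579284-108579453, plus strand: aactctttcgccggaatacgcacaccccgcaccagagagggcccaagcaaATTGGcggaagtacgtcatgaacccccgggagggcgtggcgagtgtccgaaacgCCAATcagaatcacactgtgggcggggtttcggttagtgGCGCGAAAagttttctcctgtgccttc
Pola1, chrX:93632156-93632325, minus strand: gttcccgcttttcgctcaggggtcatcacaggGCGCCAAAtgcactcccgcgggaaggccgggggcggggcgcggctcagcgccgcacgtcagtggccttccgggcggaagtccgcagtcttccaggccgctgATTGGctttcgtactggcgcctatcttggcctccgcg
Rrm2, chr12:24708084-24708253, plus strand: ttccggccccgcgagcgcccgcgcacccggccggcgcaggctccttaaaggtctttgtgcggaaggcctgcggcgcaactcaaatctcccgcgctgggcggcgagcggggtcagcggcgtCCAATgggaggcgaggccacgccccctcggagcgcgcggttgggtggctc
Pold1, chr7:44548816-44548985, minus strand: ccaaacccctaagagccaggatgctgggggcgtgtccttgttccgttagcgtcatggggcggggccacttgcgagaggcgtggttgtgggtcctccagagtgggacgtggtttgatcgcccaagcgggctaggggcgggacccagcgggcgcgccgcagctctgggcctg
Pold1 had an E2F match only after its start, at base 40, outside the stretch printed, so the presence of the letters in a window did not separate Pold1 from the members that moved together.

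The arrays shared 1 scale, with a trimmed mean of 500.2 on each, and median signals ran from 98.8 to 151. The B cell label was checked with 12 marker genes, of which 11 were measured. Summed signal of these 11 markers was 28839 to 98617 on the marginal arrays and 48091 to 75655 on transitional 1, 2 and 3, but 10904 and 7733 on transitional 4 and 5. Cd79a, a signalling chain of the B cell receptor, was at 2005 and 910 on transitional 4 and 5 and at 4149 to 16736 on the other 9 arrays, and the dim Pax5 probe set was near 0 there (4.2 and 12.2, against 58.7 to 127.5). Transitional 4 and 5 therefore stood apart from the other arrays in the markers of their label, and the class difference, the grade trend, the ranges of the members and the class counts of the pathway lists are given with and without them. The contrast of moderately severe with severe spleens consists of these arrays and is given with each left out in turn for the members' median.

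Signals of the replication genes were highest on transitional 4 and transitional 5. These were the 2 highest arrays for 26 of the 29 measured members, a pattern shown by 12.6% of all 13576 tested probe sets. They were the 2 lowest arrays for 0 members and for 20.3% of tested probe sets. The exceptions were Pold1, Pole and Tyms. Transitional 5 was the highest array for 15 members, transitional 4 for 12, and marginal 5 for 2, Pold1 and Tyms. Among the other 9 arrays marginal 1 was the highest for 18 members and marginal 3 for 7, while the lowest of all 11 was transitional 3 for 10 members, marginal 4 for 8 and transitional 1 for 7. In these bulk samples fewer cycling cells and less RNA of a gene per cell cannot be told apart.

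**Figure D1:**
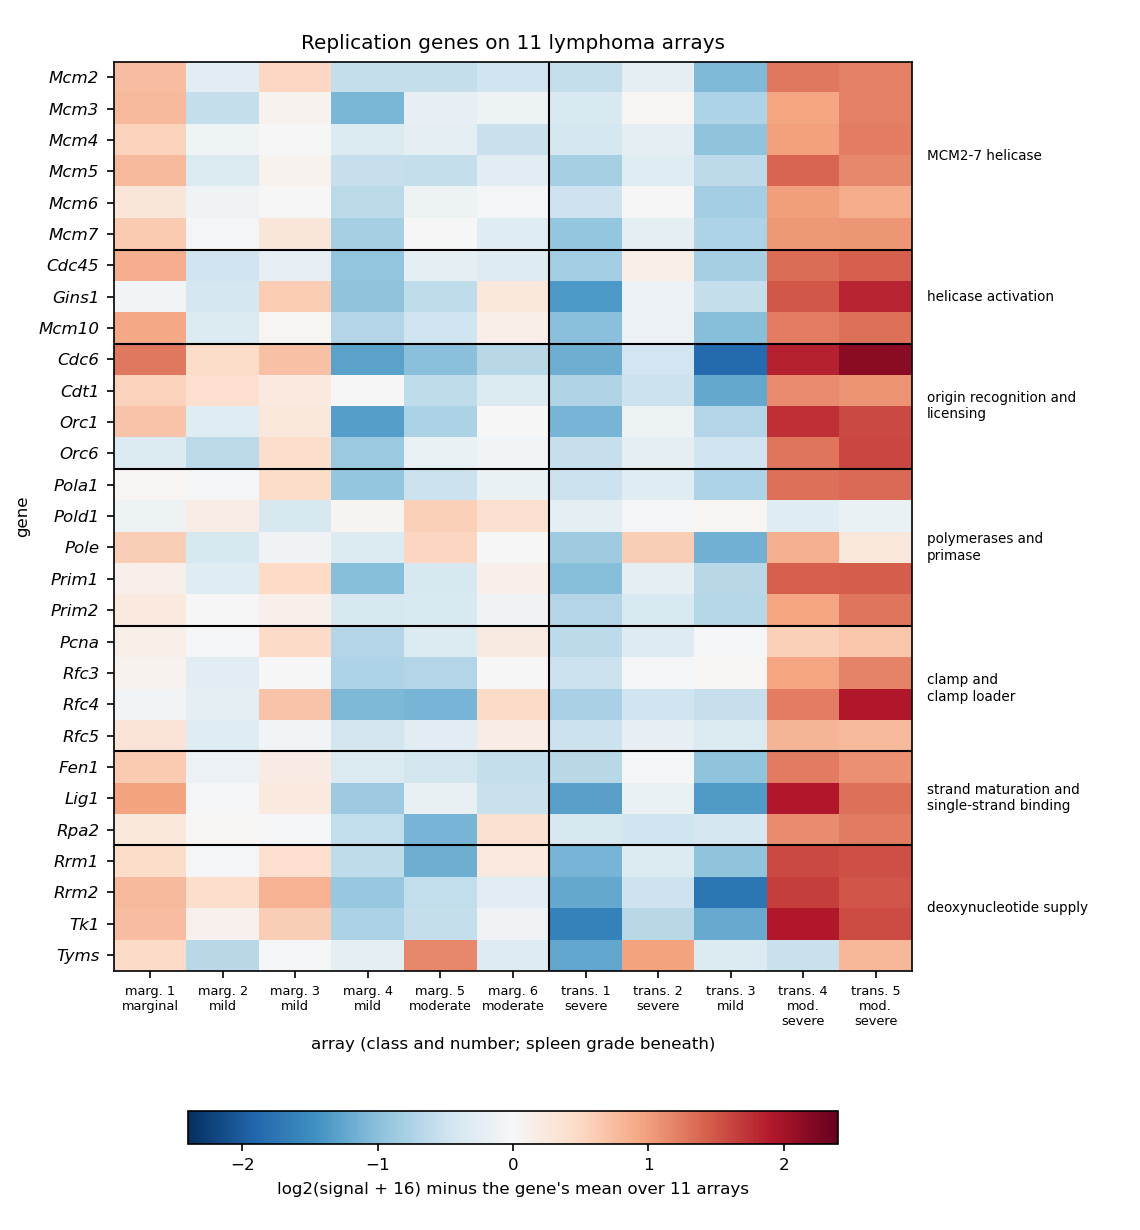
Log2(signal + 16) of each of the 29 measured replication genes, shown as the difference from that gene's mean over 11 arrays, with rows ordered by role and columns by class and array number, and spleen grade beneath. Red columns mark transitional 4 and 5, where 26 of the 29 genes had their 2 highest signals, and the rows of Pold1, Pole and Tyms break the pattern.

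The members spanned wide ranges. The median member differed by 2.34 on the log2 scale between its highest and its lowest array, against 1.56 for all tested probe sets. Cdc6 ranged 17.4-fold, Tk1 12.0-fold and Rrm2 10.6-fold. At the other end stood Pold1 at 1.98-fold, Rfc5 at 2.53-fold and Pcna at 2.56-fold. Without transitional 4 and 5 the median range was 1.61 against 1.28 for all tested probe sets, and Cdc6 ranged 9.31-fold, the dim Tyms 8.87-fold and Tk1 5.30-fold. As a score of the set on each array, the median log2 deviation of the 29 members from their own means was 1.23 and 1.24 on transitional 4 and 5. It was 0.55 on marginal 1 and 0.24 on marginal 3, between −0.44 and −0.09 on marginal 2, 5 and 6 and transitional 2, and −0.70, −0.78 and −0.74 on marginal 4, transitional 1 and transitional 3. The transitional class thus held both the highest and the lowest arrays of the set.

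The first comparison asked whether replication genes differed between the marginal and transitional classes. Of the 29 members 23 had a higher and 6 a lower mean log2 signal in transitional lymphomas, and none passed the limma test (adjusted p = 0.999 for all members but Tk1, whose adjusted p was higher still), as 0% of all tested probe sets passed. The 6 lower members were Pold1, Pole, Cdt1 and, of the nucleotide genes, Tk1, Tyms and Rrm2. At an unadjusted p under 0.05 there were 0 members, against 129 probe sets higher and 325 lower among all tested. Their median log2 difference, transitional minus marginal, was 0.22, with all tested probe sets at −0.06, and it ran from −0.26 for Pold1 to 0.61 for Orc6. No member had all transitional arrays above all marginal arrays, which 0.103% of tested probe sets had, or all below, which 0.125% had. Without transitional 4 and 5, an alternative added once the values were known, the median was −0.43 and 1 of 29 members was higher. Leaving out either of them alone gave −0.015 and −0.043, with 14 members higher each time. Without transitional 3 the median was 0.52.

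The second comparison used the spleen grade as the severity of each animal, ranked from 1 to 5. The trend over all 11 arrays called 0% of probe sets and none of the members by limma, with a member median of 0.05 log2 units for each step. At an unadjusted p under 0.05 there were 0 members, against 132 probe sets higher and 160 lower. With class in the model the median was −0.04, 9 members leaned up and 20 down, and again 0% of probe sets and no member passed (0 members at an unadjusted p under 0.05, against 172 probe sets higher and 126 lower). The size and sign of that median depended on single arrays. Without transitional 1 it was 0.10 with 25 of 29 members leaning up, without marginal 1 it was 0.053 with 22, without marginal 5 it was 0.010 with 17 and without transitional 2 it was 3.3e-05 with 15, while array weights gave −0.49 with 2. The members' calls depended on transitional 3, the 1 transitional lymphoma with a mild spleen. Without it the median was −0.66 for each step and Cdc6, Cdt1, Fen1, Mcm2 and Mcm4 were called lower with rising grade, among 642 probe sets called higher and 503 lower. The transitional arrays then held only moderately severe and severe spleens, so this fit overlaps with the contrast of those grades below. For the 26 members with their 2 highest arrays on transitional 4 and 5, the moderately severe spleens lay above the moderate and the severe ones, an order that a straight line over the grades does not follow, and the plot of signal by grade shows 5 of these genes beside Pold1.

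**Figure D2:**
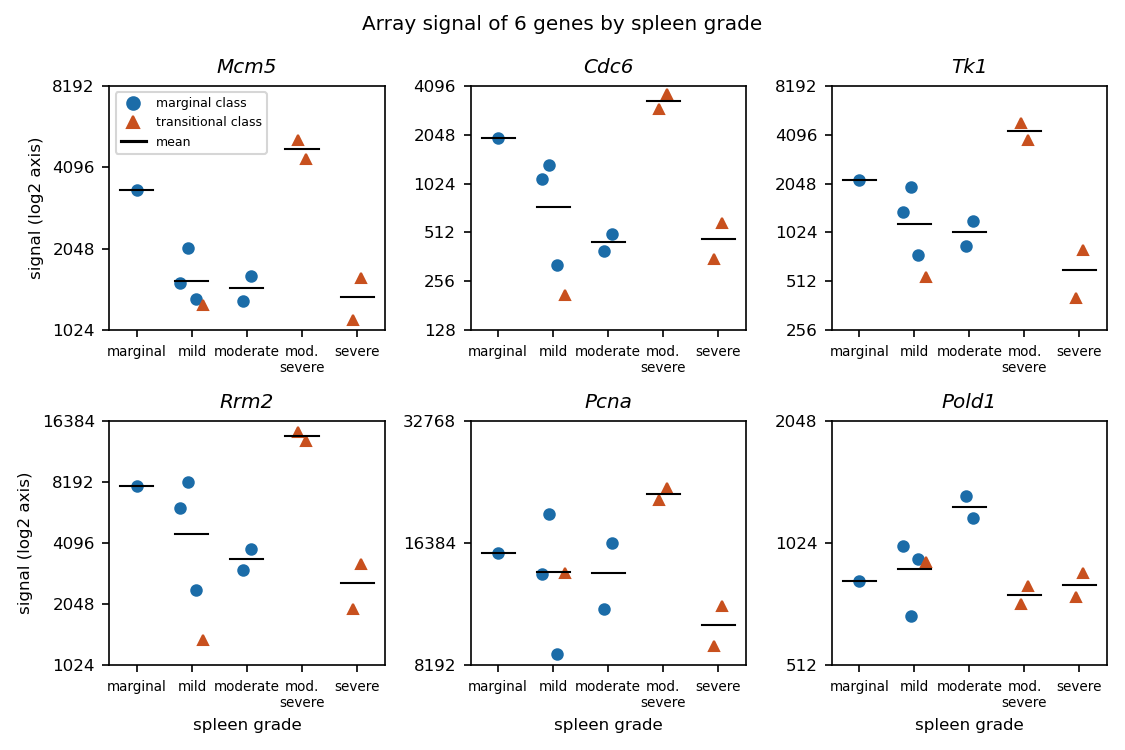
Signal of 6 genes (log2 axis) against the spleen grade of the animal, with 1 point for each array, marginal class as circles and transitional class as triangles, and black lines at the mean of each grade. For Mcm5, Cdc6, Tk1, Rrm2 and Pcna both moderately severe arrays lie above every other array, while those of Pold1 lie among the rest.

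Grade was therefore also fitted as unordered groups over all 11 arrays, and the 2 moderately severe spleens (transitional 4 and 5) were compared with the 2 severe ones (transitional 1 and 2). This contrast was chosen after the values were seen, so its p-values describe these 4 arrays and are no independent test, and the grade cannot be told apart from the 2 animals that carry it. It shares arrays with the class comparison. Of the 29 members, 26 were called higher in moderately severe spleens by limma and 0 lower, while 9.4% of all tested probe sets were called higher and 14.9% lower, 24.3% in either direction. The median member difference was 1.72 on the log2 scale against −0.22 for all tested probe sets. Both moderately severe arrays lay above both severe arrays for the same 26 members and for 26.4% of all tested probe sets. Both lay below for 0 members and for 43.3% of probe sets. For the 26 members this order follows from transitional 4 and 5 being their 2 highest arrays, so it is no further result. With 1 of the 4 arrays left out, the lone array of its grade is assumed to vary like the other groups. Fewer members were then called each time, and fewer of all tested probe sets as well. The members' medians were 1.49 to 1.86, which lay 1.69 to 2.10 above those of all tested probe sets. With the sample number as a block the median was 1.81 and no member was called. That fit has nearly as many terms as arrays, so its lack of calls cannot show whether the calls depend on the number. Median scaling of the arrays moved the median of all tested probe sets to 0.16 and the calls to 2084 higher and 1095 lower, from 1276 and 2017. Quantile normalization gave 1352 and 1411. The members' median lay 1.95 above that of all tested probe sets as deposited and 1.71 above it with quantile normalization, with 25 members called.

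**Figure D3:**
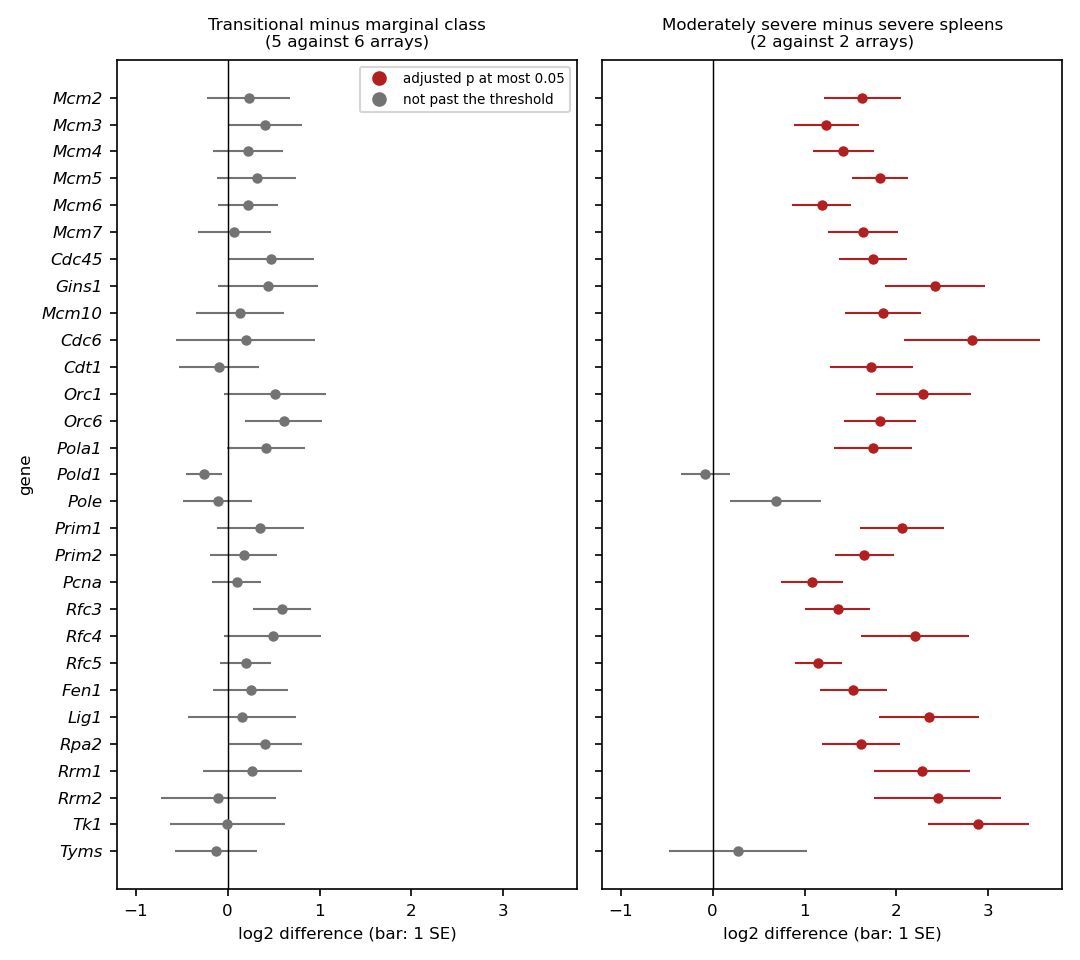
Log2 difference of each of the 29 replication genes with a bar of 1 standard error, for transitional minus marginal lymphomas (left) and for moderately severe minus severe spleens (right). Red points passed the limma threshold of adjusted p 0.05. None passed on the left, where values run from −0.26 to 0.61, and 26 passed on the right, where Pold1, Pole and Tyms did not.

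The 6 subunits of the MCM2-7 helicase, the ring that unwinds DNA ahead of the fork, moved together. All 6 were called higher in moderately severe than in severe spleens, by 1.19 to 1.82. Beside this and the counts of the other roles below, 9.4% of all tested probe sets were called higher and 14.9% lower. Mcm2 signal was 1269 to 3181 on the 6 marginal arrays (median 1482) and 1279.5, 1628, 898, 4573 and 4424 on transitional 1 to 5. Mcm3 signal was 821 to 3062 on the 6 marginal arrays (median 1580.5) and 1376, 1830.5, 1055, 3419 and 4121 on transitional 1 to 5. Mcm5 signal was 1309.5 to 3365 on the 6 marginal arrays (median 1577) and 1119, 1600, 1265, 5179 and 4389 on transitional 1 to 5. In all 3 genes transitional 4 and 5 were above every other array, marginal 1 was the next, and the remaining transitional arrays lay within or below the marginal range, so the classes overlapped. Mcm5 differed by 1.82 (SE 0.30, adjusted p = 0.00486) between moderately severe and severe spleens, the smallest p among the members by limma, Mcm2 by 1.63 (SE 0.42) and Mcm3 by 1.23 (SE 0.35). Between classes their differences were 0.32 (SE 0.43), 0.23 (SE 0.45) and 0.41 (SE 0.40), in that order. Mcm4, Mcm6 and Mcm7 complete the ring. Their lowest and highest signals were 1094 and 5069, 1593 and 5709, and 3371 and 13456, with the highest on transitional 5, 4 and 5. Their differences between moderately severe and severe spleens were 1.42 (SE 0.33), 1.19 (SE 0.32) and 1.64 (SE 0.38).

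Genes that turn the loaded ring into an active helicase were called in the same contrast for all 3 measured members. Cdc45, which travels with the MCM ring, had a signal of 170.2 to 643 on the 6 marginal arrays (median 284) and 186, 379, 189.8, 897 and 961 on transitional 1 to 5. Gins1, a subunit of the GINS complex that joins Cdc45 on the ring, had a signal of 299.7 to 928 on the 6 marginal arrays (median 514) and 222, 543, 402, 1718 and 2183 on transitional 1 to 5. For Gins1 the lowest array of all was transitional 1, at 222, and the highest was transitional 5, so the transitional class spanned the full 9.85-fold range of the gene. Gins1 differed by 2.42 (SE 0.55, adjusted p = 0.0125) and Cdc45 by 1.74 (SE 0.37, adjusted p = 0.00978) between moderately severe and severe spleens in the limma fit. Their class differences were 0.44 (SE 0.54) and 0.47 (SE 0.47), smaller than the standard error for Gins1 and about equal to it for Cdc45. Mcm10, which helps to start the helicase, ran from 179.8 on transitional 3 to 978 on transitional 5 and differed by 1.85 (SE 0.41) between the grades.

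Origin recognition and licensing genes included the member with the widest range. This was Cdc6, the ATPase that loads the MCM ring together with the origin recognition complex, with a signal of 322 to 1960.5 on the 6 marginal arrays (median 798) and 351, 584, 211, 2958 and 3666 on transitional 1 to 5. Its lowest array was transitional 3 and its highest transitional 5, and marginal 1, 3 and 2 followed transitional 4 and 5. Orc1, the largest subunit of the origin recognition complex, had a signal of 83.9 to 388 on the 6 marginal arrays (median 214) and 101, 214, 139, 833 and 741 on transitional 1 to 5. Orc6, the smallest subunit, had a signal of 369 to 938 on the 6 marginal arrays (median 587) and 472, 601, 498, 1726 and 2147 on transitional 1 to 5. Orc1 was lowest on marginal 4 and transitional 1, while for Orc6 the highest array after transitional 4 and 5 was marginal 3 at 938. The differences between moderately severe and severe spleens were 2.82 (SE 0.74) for Cdc6, a 7.05-fold change, 2.29 (SE 0.52) for Orc1 and 1.82 (SE 0.39) for Orc6, all called by limma. Orc6 had the largest class difference of the set, 0.61 (SE 0.42), and was not called, as for Orc1 at 0.52 (SE 0.56) and Cdc6 at 0.20 (SE 0.76). Cdt1, the partner of Cdc6 in loading the ring, ran from 1501 on transitional 3 to 7786 on transitional 4 and differed by 1.72 (SE 0.45) between the grades.

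Among polymerases and primase 3 of 5 members were called between the grades. Those not called were Pold1 and Pole, the catalytic subunits of polymerases delta and epsilon. Pola1, the catalytic subunit of polymerase alpha, had a signal of 248 to 667 on the 6 marginal arrays (median 453) and 333, 395, 284, 1230.4 and 1275 on transitional 1 to 5. Prim1, the catalytic subunit of primase, had a signal of 718 to 2071 on the 6 marginal arrays (median 1414) and 721, 1269, 932, 4009.8 and 4079 on transitional 1 to 5. Both genes were highest on transitional 4 and 5 and next on marginal 3, and both were lowest on marginal 4. Their differences between moderately severe and severe spleens were 1.74 (SE 0.42) and 2.06 (SE 0.46), and that of Prim2, the regulatory subunit of primase, was 1.65 (SE 0.32). Between classes Pola1 differed by 0.42 (SE 0.42) and Prim1 by 0.36 (SE 0.47).

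Pold1, the catalytic subunit of polymerase delta, behaved differently from its partners at the fork. Its signal was 676 to 1338 on the 6 marginal arrays (median 971) and 754, 862, 917, 722 and 802 on transitional 1 to 5. Marginal 5 and 6 were the highest arrays, marginal 3 the lowest and transitional 4 the next lowest. The 5 transitional values lay close together and inside the marginal range. Pold1 differed by −0.08 (SE 0.27, adjusted p = 0.849) between moderately severe and severe spleens, and by −0.26 (SE 0.19) between classes, neither called by limma. A further probe set of Pold1 gave 0.10 (SE 0.28, adjusted p = 0.822 by limma) between the grades, so the sign depended on the probe set. Pole, the catalytic subunit of polymerase epsilon, was at 774 on transitional 4 and 512 on transitional 5, with transitional 1 at 229, transitional 2 at 644 and transitional 3 at 182. The severe spleens thus bracketed transitional 5 in Pole, whose difference was 0.68 (SE 0.49, adjusted p = 0.335) and not called. Pole ranged from 319 to 644 on the marginal arrays.

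The sliding clamp and its loader were called as 4 of 4, with smaller differences for the clamp itself. Pcna, the ring that holds polymerases on DNA, had a signal of 8709 to 19325 on the 6 marginal arrays (median 14586) and 9102, 11451, 13835, 20928 and 22330.4 on transitional 1 to 5. It was bright on every array and spanned 2.56-fold in all. Marginal 3 and 6, at 19325 and 16355, came closest to transitional 4 and 5. The Pcna difference between moderately severe and severe spleens was 1.08 (SE 0.33, adjusted p = 0.0401), the smallest called by limma among the members and a 2.12-fold change, and its class difference was 0.10 (SE 0.27). Rfc3, a small subunit of the loader replication factor C, had a signal of 364 to 656 on the 6 marginal arrays (median 562) and 424, 592, 632, 1205 and 1428 on transitional 1 to 5. Rfc4, another small subunit, had a signal of 672 to 2365 on the 6 marginal arrays (median 1338) and 851, 1056, 999.5, 3471 and 5618 on transitional 1 to 5. In Rfc4 transitional 5 stood well above transitional 4, with marginal 3 and 6 next. The differences between the grades were 1.36 (SE 0.35) for Rfc3, 2.20 (SE 0.59) for Rfc4 and 1.15 (SE 0.26) for Rfc5. Rfc3 had the smallest unadjusted p between classes among the members at a difference of 0.59 (SE 0.32), which limma did not call (adjusted p = 0.999).

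Genes that finish the lagging strand and coat single strands were called as 3 of 3. Fen1, the nuclease that trims flaps from lagging strand fragments, had a signal of 1769 to 4059.9 on the 6 marginal arrays (median 2219) and 1645, 2586, 1342, 6307 and 5669.5 on transitional 1 to 5. Lig1, the ligase that seals those fragments, had a signal of 627 to 2291 on the 6 marginal arrays (median 1080.2) and 462, 1041, 446, 4458 and 2932 on transitional 1 to 5. Lig1 was 9.99-fold apart between transitional 4 and transitional 3, both of the transitional class, and marginal 1 lay between transitional 5 and the rest. Rpa2, a subunit of the single-strand binding protein RPA, had a signal of 439 to 1254 on the 6 marginal arrays (median 969) and 742, 694, 735, 2145 and 2329.8 on transitional 1 to 5. Transitional 1, 2 and 3 differed little from each other in Rpa2, and marginal 5 was the lowest array. The differences between moderately severe and severe spleens were 2.35 (SE 0.54) for Lig1, 1.62 (SE 0.42) for Rpa2 and 1.53 (SE 0.36) for Fen1, all called by limma. Between classes they were 0.16 (SE 0.59), 0.41 (SE 0.40) and 0.25 (SE 0.41), none of them called.

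Deoxynucleotide supply held the largest difference of the set. Tk1, the thymidine kinase of S phase cells, had a signal of 748 to 2146 on the 6 marginal arrays (median 1284) and 405, 799, 546, 4874 and 3832 on transitional 1 to 5. Transitional 1 was its lowest array and transitional 4 its highest, and the difference between moderately severe and severe spleens was 2.89 (SE 0.55, adjusted p = 0.00713) by limma, a 7.41-fold change. The class difference of the same gene was −0.0015 (SE 0.63), since the transitional class held the 2 highest and the 2 lowest arrays. Rrm1, the large subunit of ribonucleotide reductase, had a signal of 1243 to 3826 on the 6 marginal arrays (median 3024) and 1293, 2252, 1443, 8434 and 8267 on transitional 1 to 5. Its partner subunit Rrm2 had a signal of 2407 to 8193 on the 6 marginal arrays (median 4967) and 1942, 3237, 1365, 14486 and 13065 on transitional 1 to 5. Both subunits were high on the same arrays, transitional 4 and 5 and then marginal 1 and 3, while the low end differed, marginal 5 for Rrm1 and transitional 3 for Rrm2. They differed by 2.28 (SE 0.52) and 2.45 (SE 0.69) between the grades, both called, and by 0.27 (SE 0.54) and −0.10 (SE 0.62) between classes. Tyms, which makes thymidylate, had a dim signal of 36.7 to 171 on the 6 marginal arrays (median 60) and 19.3, 147, 50.3, 42 and 129 on transitional 1 to 5. Marginal 5 and transitional 2 were its highest arrays and transitional 4 was the third lowest. Its difference was 0.27 (SE 0.75, adjusted p = 0.819) by limma, with the widest standard error of the set.

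Further probe sets of the members gave a second reading of 15 genes. Of 21 further tested probe sets, 17 were called higher in moderately severe than in severe spleens and 0 lower. The shares of all tested probe sets were 9.4% and 14.9%. Of the 21, 20 had the sign of the probe set used above. The 4 that were not called belonged to Mcm3 (a pair, at 0.78 and 0.62), Rpa2 (0.82) and Pold1. In the class comparison 18 of the 21 had the same sign. The 3 others belonged to Cdt1, Mcm3 and Rrm2, and none of them was called.

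Other genes of the replication fork and of origins, 36 listed and 29 tested, followed the members in the contrast of grades. Their median was 0.90, with 14 called higher and 1 lower by limma, against 9.4% and 14.9% of all tested probe sets. Among those called higher were Dna2, a nuclease of the lagging strand, at 1.99 (SE 0.57), Gins4 at 1.37 (SE 0.26), the licensing inhibitor Gmnn at 1.76 (SE 0.43), and Pole2 and Pole3, accessory subunits of polymerase epsilon, at 1.62 (SE 0.38) and 1.90 (SE 0.34). The 1 called lower was Pold4, the smallest subunit of polymerase delta, whose signal was 825 to 3053 on the 6 marginal arrays (median 1478) and 2242, 1285, 2328, 404 and 348 on transitional 1 to 5. Transitional 4 and 5 were the lowest arrays for Pold4, which differed by −2.13 (SE 0.45, adjusted p = 0.0105). Between classes 25 of the 29 were higher and 4 lower, none called (6 and 23 without transitional 4 and 5), with Dbf4, the activator of the kinase Cdc7, at 0.59 (SE 0.37) and Orc4 at 0.48 (SE 0.33).

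Other nucleotide supply genes, 34 listed and 28 tested, had 3 called higher and 6 lower in moderately severe spleens, where 9.4% and 14.9% of all tested probe sets were called, and a median of 0.31. Dut, which removes dUTP, was higher by 1.65 (SE 0.39, adjusted p = 0.0149), and Mthfd1 and Paics, of folate and purine synthesis, by 1.20 (SE 0.33) and 0.99 (SE 0.25). Samhd1, which degrades deoxynucleotides, had a signal of 1215 to 2830.5 on the 6 marginal arrays (median 2264) and 3002, 2987, 2588, 834 and 792 on transitional 1 to 5. Its 2 lowest arrays were transitional 4 and 5, and it differed by −1.86 (SE 0.24, adjusted p = 0.00316) in the limma fit. Rrm2b, the reductase subunit used outside S phase, and Tk2, the mitochondrial thymidine kinase, were lower by −1.29 (SE 0.37) and −1.70 (SE 0.36), opposite to Rrm2 and Tk1. The other 3 called lower were Cmpk1, Ctps2 and Nme2. Between classes 17 were higher and 11 lower, none called (18 and 10 without transitional 4 and 5), with the salvage enzyme Hprt at 0.46 (SE 0.19) and Shmt1, of folate metabolism, at 1.01 (SE 0.46).

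The next 3 lists stand against 9.4% of all tested probe sets called higher between the grades and 14.9% called lower. Chromatin assembly genes, 10 tested of 12, had 5 called higher and 0 lower between the grades at a median of 1.16. These were the histone chaperones Asf1b at 2.31 (SE 0.60), Chaf1b at 2.02 (SE 0.42), Nasp at 1.52 (SE 0.48) and Supt16 at 0.95 (SE 0.29), and Uhrf1, which guides DNA methylation at the fork, at 1.86 (SE 0.53). Of the E2F and cyclin list, 20 tested of 23, 11 were called higher and 2 lower at a median of 1.21. Ccne2 and Ccne1, the E cyclins of S phase entry, differed by 3.67 (SE 0.91) and 2.42 (SE 0.42), E2f8 by 3.15 (SE 0.68) and E2f1 by 2.25 (SE 0.52). The D cyclins went in different directions. Ccnd3 was higher by 2.08 (SE 0.35), Ccnd2 lower by −2.68 (SE 0.60), and Ccnd1 stood at −1.47 (SE 0.57) without passing. Rbl2, a pocket protein of resting cells, was lower by −2.17 (SE 0.35). Mitosis genes, 26 tested of 27, were all higher with 16 called and a median of 2.11, among them Aurka and Birc5 at 2.87 (SE 0.57) and 2.83 (SE 0.66). Between classes none of these 3 lists had a called gene. There 9 of 10 chromatin assembly, 11 of 20 E2F and cyclin and 21 of 26 mitosis genes were higher in transitional lymphomas, and 2, 4 and 1 without transitional 4 and 5. Hells and Asf1a stood at 0.83 (SE 0.36) and 0.46 (SE 0.32), Cdk4 and Ccnd1 at 0.31 (SE 0.18) and −0.72 (SE 0.45), and Mad2l1 and Bub1 at 0.60 (SE 0.39) and 0.60 (SE 0.58).

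Markers of erythroid cells moved with the replication genes, and those of granulocytes did so in part. Of 12 erythroid markers 8 were tested. Against 9.4% of all tested probe sets, all 8 were called higher in moderately severe than in severe spleens, at a median of 4.61. Signal was summed over the 9 erythroid markers with a probe set, tested or not. The sum was 17735 to 51975 on the marginal arrays and 1201, 6113, 4685, 72758 and 61307 on transitional 1 to 5. Klf1, an erythroid transcription factor, was 1259.8 to 8726 on the 6 marginal arrays (median 2931) and 123, 424, 398, 13401 and 12158 on transitional 1 to 5. The 2 arrays with the highest replication signals were thus the 2 with the highest erythroid signals, and transitional 1, with the lowest score of the replication genes, had the lowest erythroid sum. Of 10 granulocyte and precursor markers 9 were tested and 5 called higher, at a median of 4.10, with sums of 10947 to 208573 on the marginal and 8845 to 160730 on the transitional arrays. The myeloid enzymes Mpo and Elane were at 47.2 and 49.3 on transitional 1, against 10713 and 6787 on transitional 4. On transitional 5 the granulocyte sum was 97846, below 208573 on marginal 1 and 152543 on marginal 3.

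B cell markers went the other way. All 11 tested were lower in moderately severe spleens with 7 called, at a median of −2.25. Called lower were also 6 of 7 T cell, 3 of 5 natural killer cell and 2 of 5 plasma cell markers. Of all tested probe sets 14.9% were called lower and 9.4% higher. No macrophage marker of 7 and no megakaryocyte marker of 5 was called. Lists this short cannot set an absence of calls apart from those shares. Within the marginal class alone, marginal 1 had the highest score of the replication genes, the highest granulocyte sum and the lowest B cell sum. Marginal 4 had the lowest replication score and the highest B cell sum. The lowest erythroid and granulocyte sums of the class, 17735 and 10947, were on marginal 6. Its replication score of −0.09 was above those of marginal 2, 4 and 5. The highest erythroid sum of the class, 51975, was on marginal 3. Transitional 2 carried the highest macrophage sum, 38037 over the 8 markers with a probe set, without a high replication score. The ratio of 3-prime to 5-prime signal of Actb, a sign of RNA integrity, was 1.11 and 1.13 on transitional 4 and 5 and 1.12 to 1.44 on the other arrays. The part of the other cell types in the replication signals was not tested.

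**Figure D4:**
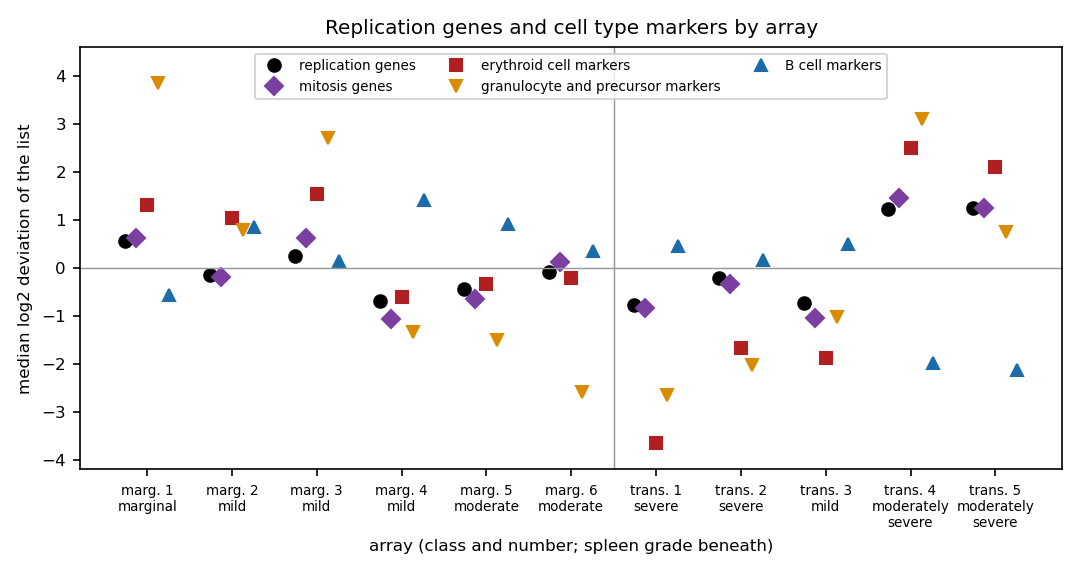
Median log2 deviation of 5 gene lists from their own means on each of the 11 arrays: 29 replication genes (black circles), 26 mitosis genes (purple diamonds), 8 erythroid markers (red squares), 9 granulocyte and precursor markers (orange triangles pointing down) and 11 B cell markers (blue triangles). On transitional 4 and 5 the replication genes stand at 1.23 and 1.24, the erythroid markers at 2.50 and 2.11 and the B cell markers at −1.98 and −2.13.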

How the data were processed

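RNA of 11 lymphomas was measured on 1 array each. The values are linear intensities deposited by the authors, for which the submitters' processing notes name MAS5 without a version. They share a 2% trimmed mean on all arrays, so a shift shared by most transcripts would be hidden. Per the labels' protocols cRNA was primed with poly-dT. No batch or scan record was used.

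Of 22690 probe sets, 64 controls were left out. Of the rest 20380 had 1 gene, 691 several and 1555 none in the platform annotation, with symbols updated through RefSeq (GRCm38.p6), which also gave the promoters. After adding 16 and taking log2, which understates changes of dim probe sets, the upper 60% by mean over all arrays (13576) were fitted with limma 3.58.1 in R 4.3.3 (lmFit, eBayes with an intensity trend, two-sided) and Benjamini-Hochberg adjustment over all tested, with 0.05 as the threshold. Levels of different genes were not compared. The class fit was tested on simulated data, and the grade fits were not. No 2 arrays were identical and 0 columns lacked a sample. The labels do not number the animals, so p-values measure the spread between these samples. Sample numbers are shared by the classes but did not pair samples (correlations of deviations −0.44, −0.09, −0.41, −0.45 and −0.32).

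Values on all arrays are given for Pcna and, in each role, for the 2 members with the smallest unadjusted p between classes and the member with the widest range. In each other pathway list the 2 genes with the smallest p between classes are named. The further genes of the pathway and marker lists that are named were chosen after their values were seen. Members and lists were chosen with earlier results of these data known. Alternatives were the offset, scaling, filter, variance model, array weights, sample number as a block, the mean of all probe sets, animals with failure to nest, and leaving out arrays. The contrast of unordered grades was added after the data were seen.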

Additional observations from a re-analysis of the deposited data

How the results depend on the processing

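No class or grade trend call was made among the members in any setting except without transitional 3 in the grade trend with class in the model, where 1 of all tested probe sets, the chosen one of no member, was also called lower without transitional 1. The median class difference of the members, 0.22, was 0.33 with median scaling and 0.11 with failure to nest only, and turned to −0.19 with array weights and −0.43 without transitional 4 and 5. Leaving out each array in turn gave −0.043 to 0.52. Signs by gene are given for 20 members, up to 3 in each role. With array weights the class difference turned for 19 of the 29 members, among them Mcm2 (−0.26), Mcm5 (−0.13), Gins1 (−0.20), Cdc6 (−0.78), Orc1 (−0.10), Pola1 (−0.14), Prim1 (−0.19), Pcna (−0.19), Rfc4 (−0.15), Fen1 (−0.21), Lig1 (−0.51), Rpa2 (−0.060) and Rrm1 (−0.41). Without transitional 4 and 5 it turned for 22 of 29, among them Mcm2 (−0.51), Mcm3 (−0.16), Mcm5 (−0.42), Cdc45 (−0.29), Gins1 (−0.50), Cdc6 (−1.07), Orc1 (−0.41), Orc6 (−0.13), Pola1 (−0.33), Prim1 (−0.47), Pcna (−0.28), Rfc4 (−0.38), Fen1 (−0.44), Lig1 (−0.87), Rpa2 (−0.24) and Rrm1 (−0.67). With failure to nest only it turned for 7 of 29, among them Cdc6 (−0.46), Pcna (−0.15), Lig1 (−0.016), Rrm1 (−0.042) and Tyms (0.29), and Tk1 turned to 0.020 with an offset of 64 and 0.11 with median scaling. Leaving out single arrays turned some genes, with ranges of −0.054 to 0.53 for Mcm2, −0.31 to 0.69 for Cdc6, −0.054 to 0.27 for Pcna, −0.026 to 0.53 for Fen1, −0.30 to 0.52 for Lig1, −0.087 to 0.59 for Rrm1, −0.48 to 0.40 for Tk1 and −0.39 to 0.16 for Tyms. The grade trend of 0.05 turned to −0.079 with array weights and −0.12 without transitional 4 and 5, and ran from −0.021 to 0.21 with single arrays left out. With class in the model it ran from −0.66 to 0.10, with 0 to 5 members called lower and 0 to 642 probe sets called higher and 0 to 503 lower. Between moderately severe and severe spleens 25 or 26 members were called under every change of offset, scaling, filter, variance model, weights or probe sets. Leaving out arrays gave 2 to 26 members, 332 to 1341 probe sets higher and 526 to 2114 lower, and median scaling gave 2084 and 1095. There Pold1 was 0.30 with median scaling, 0.010 with the mean of its probe sets and −0.18 to 0.014 with single arrays left out, and Tyms ran from −0.83 to 1.38. The sample numbers did not pair the samples. With the number as a block the class median was 0.18 and the grade trend −0.0024 (with class in the model −0.22). Between grades 0 members and 0 probe sets in either direction were called, with Tyms at −1.92. That fit between grades has nearly as many terms as arrays, so its lack of calls follows largely from the design. The cause of the other changes was not tested. The number of arrays, 2 for each grade compared, limits the precision.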

Other observations

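Thymidylate synthase was also read by a probe set that the annotation assigns to both Tyms and its pseudogene Tyms-ps, which the choice of single-gene probe sets left out. Its signals were 1195, 850, 2052, 534, 544 and 684 on marginal 1 to 6 and 390, 1010.5, 403.5, 3615 and 3552 on transitional 1 to 5. Transitional 4 and 5 were its 2 highest arrays, as for 26 of the 29 members, whereas the dim single-gene probe set of Tyms, at 42.0 on transitional 4, did not show this. Transcripts of the gene and of the pseudogene cannot be told apart there. The probe set was among those fitted, but its differences were not read out for this report. Dixon's test for a single far value passed its limit in 0 of 58 groups, the 29 members in each of 2 classes, where chance alone passes it in about 1 group in 20. The test cannot see a pair of far values in 1 class, such as those of transitional 4 and 5.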
